A study of Mus musculus with 5 samples.

Results

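RNA of 10 genes used to mark smooth muscle cells and pericytes was read in spheres grown from the mouse adrenal, and its level in L1CAM-positive spheres was set against that in L1CAM-negative spheres. The 10 genes are *Acta2*, *Tagln*, *Myh11*, *Cnn1*, *Actg2*, *Mylk*, *Rgs5*, *Cspg4*, *Abcc9* and *Mcam*. They were picked by name, with earlier results of these data known, and all 10 are among the 23903 genes of the deposited table. Where the table has several transcripts of a gene, that of the highest mean level was used.

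L1CAM is a cell surface adhesion molecule, and an antibody to it on a dish was used to hold back chromaffin cells from dissociated adrenals, while the cells that did not attach formed the other fraction. An overnight plating step had been used beforehand to lower the share of cortical and endothelial cells. Both fractions were grown as floating spheres in serum-free medium with EGF and FGF. The L1CAM-positive group, given as chromaffin cells in the labels, holds library 25 (mice at P0 and P2 mixed, 8 days of culture) and library 31 (P0 and P2 mixed, 5 days). The L1CAM-negative group, given as non-adrenergic, holds library 25 (P0 and P2 mixed, 8 days), library 31 (P0 and P2 mixed, 5 days) and library 28 (P5, 8 days). The labels give strain C57/bl6 for all 5, and the methods give OF-1 mice for the adrenal cultures. Library 28 is thus from other mice than the P0 and P2 libraries. For libraries 25 and 31, and for the fractions of 1 number, it is not said whether they come from separate animals. The p-values therefore reflect how far these libraries scatter, which includes age and days of culture and can also be technical. The age and the culture period are each tied to single libraries, so that within the L1CAM-negative group they cannot be told apart from the library.

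Smooth muscle cells contract when calcium and calmodulin switch on myosin light chain kinase, which phosphorylates the regulatory light chain of myosin and lets it pull on actin. Their contractile genes are switched on by serum response factor (SRF), which binds the CArG box, together with coactivators such as myocardin and the myocardin-related factors. Pericytes wrap capillaries, share part of this gene set, and are recognized by surface and signalling genes rather than by a full contractile apparatus. In the adrenal, both cell types line the vessels that run from the capsule to the medulla. Several of the marker genes are not exclusive to them, as *Acta2* and *Tagln* are also found in activated fibroblasts, *Mylk* in many non-muscle cells, *Cspg4* in glial progenitors and *Mcam* in endothelial cells.

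The values are log2(FPKM + 2), normalized by quantiles between samples. That 2 was added is read off the floor, a value of 1 in the table, and the 2 is taken away again where FPKM are given. FPKM are fragments counted per length of transcript and per total of mapped fragments, so that levels can be set side by side between genes. The depth of the libraries is unknown.

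Of the 10 genes, *Mcam* was higher and *Mylk* was lower in L1CAM-positive spheres, and the other 8 did not pass the test. The genes that most strictly define mature smooth muscle were close to the floor of the scale. *Myh11*, *Cnn1* and *Actg2* stayed below 1 FPKM in all 5 libraries, whereas the remaining 7 genes were above 1 FPKM in all 5. The name of smooth muscle therefore rests, in these spheres, on *Acta2*, *Tagln* and *Mylk*, which other cells also express. Changes were tested with limma over all 23903 genes, with p-values adjusted by Benjamini-Hochberg and a threshold of 0.05. In this comparison 11.6% of all genes were higher and 10% were lower, so that 1 of 10 in each direction is close to the share of all genes. In a separate fit without the genes that all 5 libraries have at the floor, the shares were 15.9% and 15.1%. In a fit of only genes at 1 FPKM or more in at least 2 libraries they were 21.2% and 22.4%. Each of these 2 fits called 1 of the 10 genes higher and 2 lower, and the fit at 1 FPKM or more held only 7 of them. The groups did not overlap in 5 of the 10 genes, with L1CAM-positive spheres above in 2 and below in 3, where the shares of all genes were 23.0% and 26.0% (28.1% and 31.8% without floor genes, 33.3% and 37.2% at 1 FPKM or more). The median log2 fold change of the 10 genes was -0.41, where the median over all 23903 genes was -1.97e-16. Over all genes at 1 FPKM or more in at least 2 libraries it was -0.04, a set that leaves out *Myh11*, *Cnn1* and *Actg2*. Since RNA of whole spheres was read, fewer cells of a type and less RNA per cell cannot be told apart.

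**Figure D1:**
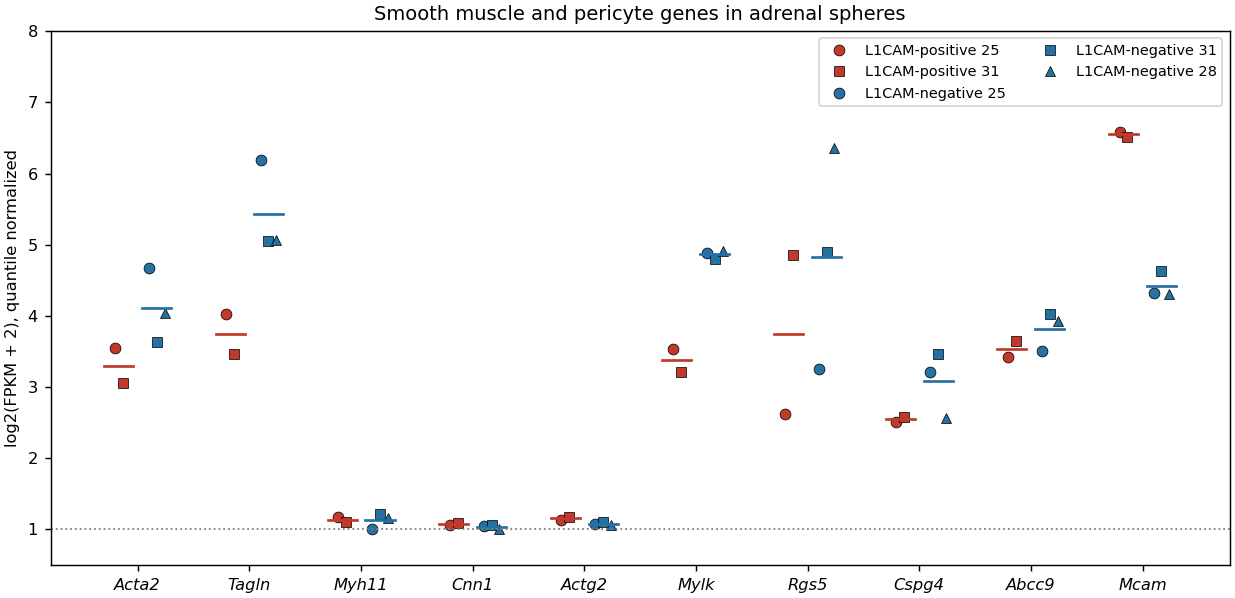
Level of each of the 10 genes as log2(FPKM + 2), with 1 point per library, red for L1CAM-positive and blue for L1CAM-negative spheres, bars at the group means and a dotted line at the floor of 1. *Mcam* is the only one of the 10 with both red points well above the blue ones, *Mylk* has both red points below 3 tightly grouped blue ones, and *Myh11*, *Cnn1* and *Actg2* lie along the floor.

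Because the actins are close copies of each other, the start of their coding sequences is shown first, as it encodes the N-terminus, the part of the protein in which actins are known to vary. The first 45 coding bases of 6 actin genes are given 5′ to 3′ from GENCODE M21 (GRCm38). Capitals mark bases that do not match *Acta2* when the whole coding sequences are aligned.
Acta2: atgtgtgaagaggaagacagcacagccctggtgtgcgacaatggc
Actg2: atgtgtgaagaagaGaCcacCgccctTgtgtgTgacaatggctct
Acta1: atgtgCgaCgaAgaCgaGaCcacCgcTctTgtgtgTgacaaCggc
Actc1: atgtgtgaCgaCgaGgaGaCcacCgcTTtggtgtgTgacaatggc
Actb: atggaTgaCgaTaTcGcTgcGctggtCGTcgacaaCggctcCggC
Actg1: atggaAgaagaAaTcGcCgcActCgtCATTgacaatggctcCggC
In the first 45 bases *Actg2* differs from *Acta2* at 5 bases and *Actb* at 13, gaps not counted. Over the coding sequence 84.2% of the bases match between *Actg2* and *Acta2*, and 82.8% between *Actb* and *Acta2*. The reads were 50 bases long. Of all words of 50 bases in the *Acta2* transcript, 0.352% also occur in an annotated transcript of another gene, and none of those of *Actg2*, *Cnn1*, *Rgs5*, *Cspg4* or *Mcam* does. For *Tagln* 48.3% of the words are shared, 44.5% with the annotated gene *Gm48529*. Words were matched on either strand, so the strand of this overlap was not determined here. The library kit keeps the strand, but whether the counting used it is not given in the sources used here. For *Actg1* 56.7% of the words recur in other annotated genes, so that its level is uncertain.

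*Acta2* encodes the α-actin of vascular smooth muscle (NM_007392, chromosome 19 of GRCm38.p6 from 34240336 to 34255585). It was at 3.54 and 3.05 in L1CAM-positive libraries 25 and 31, against 4.67, 3.63 and 4.04 in L1CAM-negative libraries 25, 31 and 28. Both L1CAM-positive libraries lay below all L1CAM-negative ones, but L1CAM-positive 25 and L1CAM-negative 31 were only narrowly apart. The log2 fold change was -0.82 ± 0.39 (SE), which limma did not call (adjusted p = 0.256). *Tagln*, which encodes the actin-binding protein transgelin (NM_011526, chromosome 9 from 45929628 to 45936058), was at 4.02 and 3.47 in L1CAM-positive libraries 25 and 31, against 6.19, 5.05 and 5.07 in L1CAM-negative libraries 25, 31 and 28. The groups did not overlap, and the L1CAM-positive libraries had 14.3 and 9.07 FPKM where the L1CAM-negative libraries had 71.1, 31.2 and 31.6 FPKM. The log2 fold change was -1.69 ± 0.48 (SE), which limma did not call (adjusted p = 0.0944). It passed without floor genes (adjusted p = 0.0434), with a range of 0.0284 to 0.346 over 17 alternatives.

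*Mylk* encodes myosin light chain kinase, the enzyme that starts contraction (NM_139300, chromosome 16 from 34745199 to 35002436). Its level is given for 1 transcript only, matched to one of 7824 bases, so that forms of the kinase were not told apart. *Mylk* was at 3.54 and 3.21 in L1CAM-positive libraries 25 and 31, against 4.88, 4.79 and 4.91 in L1CAM-negative libraries 25, 31 and 28. The L1CAM-negative libraries differed from each other by at most 0.12, less than for any other of the 7 genes above 1 FPKM, and all were above both L1CAM-positive libraries. The log2 fold change was -1.49 ± 0.12 (SE, limma adjusted p = 0.00803), or 2.80-fold higher in L1CAM-negative spheres on this scale. The difference was -1.34 within number 25 and -1.58 within number 31. *Mylk* still passed when any single library was left out, with adjusted p between 0.00135 and 0.0680 over all alternatives, the highest with the number as a block. The related kinase genes *Mylk2*, *Mylk3* and *Mylk4* were below 1 FPKM in all libraries, and *Mylk* made up at least 96.6% of the summed FPKM of the 4 genes in each library.

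*Myh11*, *Cnn1* and *Actg2*, which encode the smooth muscle myosin heavy chain, calponin 1 and the γ-actin of enteric smooth muscle, gave no level to compare. *Myh11* was at 0.251 and 0.147 FPKM in L1CAM-positive libraries 25 and 31, against 0.00996, 0.325 and 0.227 FPKM in L1CAM-negative libraries 25, 31 and 28. *Cnn1* was at 0.0912 and 0.127 FPKM in L1CAM-positive libraries, against 0.0706, 0.0918 and 0 FPKM in L1CAM-negative libraries, where it is listed at the floor in library 28. *Actg2* was at 0.201 and 0.251 FPKM in L1CAM-positive libraries, against 0.101, 0.143 and 0.0899 FPKM in L1CAM-negative libraries. The groups of *Myh11* and *Cnn1* overlapped, and their log2 fold changes of 0.01 and 0.04 did not pass (limma adjusted p = 1 and 0.388). The *Actg2* groups did not overlap, with a log2 fold change of 0.08 ± 0.02 (SE, limma adjusted p = 0.0565). Ranked among all genes tested in the same library, the highest of these 15 values stood at the percentile 37.2.

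**Figure D2:**
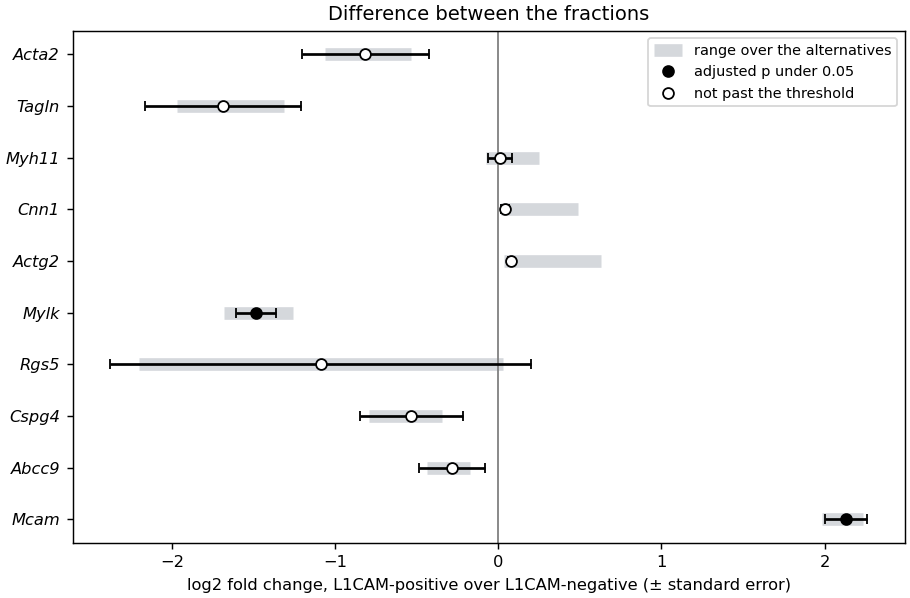
Log2 fold change of each gene (the L1CAM-positive mean minus that of L1CAM-negative spheres), with the standard error as whiskers and the range over the alternatives as a grey band. The filled points, *Mylk* at -1.49 and *Mcam* at 2.13, passed the test, and the bands of *Rgs5* and *Myh11* reach across 0.

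In the actin, myosin heavy chain, calponin and transgelin families, most of the FPKM came from a gene other than the smooth muscle form. *Actb*, which encodes cytoplasmic β-actin, was at 325 and 302 FPKM in L1CAM-positive libraries 25 and 31, against 400, 406 and 303 FPKM in L1CAM-negative libraries 25, 31 and 28. *Acta2* made up 2.75% and 1.95% of the summed FPKM of 6 actin genes in L1CAM-positive libraries, against 5.38%, 2.42% and 4.38% in L1CAM-negative libraries. That sum includes *Actg1*, whose level is uncertain. All these shares count only the transcript kept for each gene. *Myh11* so made up at most 0.369% of the summed FPKM of its family in every library. The non-muscle myosin genes *Myh9* and *Myh10* carried the rest with a small part from *Myh14*. The other transcript of *Myh11*, left out of the sum, had 0.372 FPKM in L1CAM-negative library 25. *Myh10* was higher in L1CAM-positive spheres with a log2 fold change of 0.87 (limma adjusted p = 0.0142), and *Myh9* with -0.53 did not pass (adjusted p = 0.0731). *Cnn2* and *Cnn3*, the calponins of non-muscle cells, were both lower in L1CAM-positive spheres, with log2 fold changes of -1.35 (adjusted p = 0.00502) and -0.77 (limma adjusted p = 0.0102). *Tagln3*, the transgelin of neurons, was at 95.9 and 93.4 FPKM in L1CAM-positive libraries 25 and 31, against 10.6, 12.0 and 5.37 FPKM in L1CAM-negative libraries 25, 31 and 28, a log2 fold change of 3.14 ± 0.34 (SE, limma adjusted p = 0.0125). Thus, *Tagln* made up 4.19% and 2.64% of the transgelin FPKM in L1CAM-positive libraries, against 26.5%, 13.7% and 16.0% in L1CAM-negative libraries. The level of *Tagln* itself is limited by the 48.3% of its words that are shared. *Tagln3* made up 28.2% and 27.2% in L1CAM-positive libraries, against 3.96%, 5.31% and 2.73% in L1CAM-negative libraries. Of the remaining isoform genes, *Actc1* and *Myh14* were higher and *Mylk3* was lower in L1CAM-positive spheres, each at 1.66 FPKM or less in all libraries. *Acta1*, *Actg1*, *Tagln2*, *Mylk2* and *Mylk4* did not pass. Over all genes, 11.6% were higher and 10% were lower. Of 14091 genes at 1 FPKM or more in at least 2 libraries, 2447 were higher and 2267 were lower by the same fit. In all, 4 of the 14 isoform genes were higher and 3 were lower. Without L1CAM-positive library 25 the calls of all 4 higher genes were lost and 1 was lower, and without L1CAM-positive library 31 they were lost and 2 were lower. Without L1CAM-negative library 25, 2 were higher, and without L1CAM-negative library 28, 5 were lower.

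**Figure D3:**
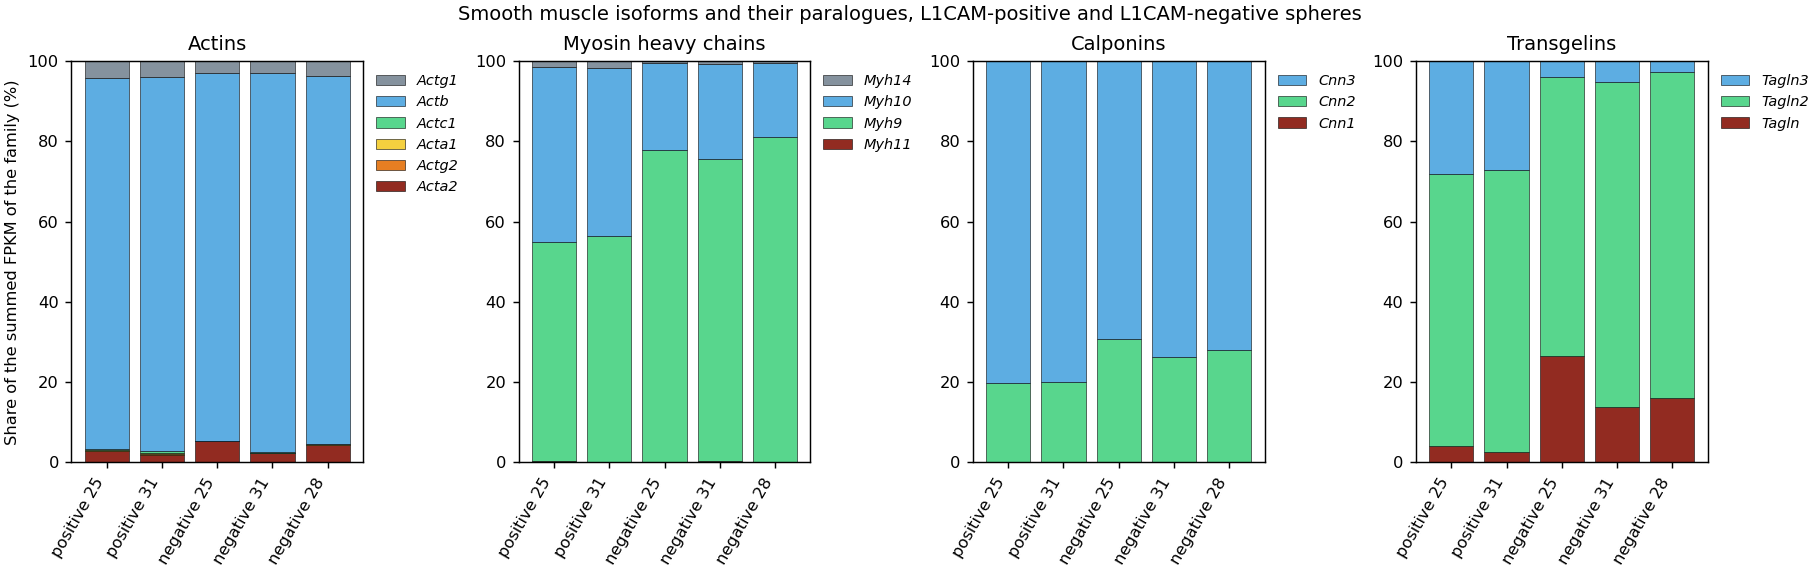
Share of the summed FPKM of each protein family taken by each gene, with 1 bar per library and the smooth muscle form at the bottom in dark red. *Acta2* is a thin layer under *Actb*, *Myh11* and *Cnn1* are too small to see, and *Tagln* takes 2.64% to 4.19% in L1CAM-positive and 13.7% to 26.5% in L1CAM-negative libraries.

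Of the genes that mark pericytes, *Mcam* moved in the direction opposite to *Mylk*. *Mcam* encodes an immunoglobulin-type adhesion molecule of pericytes, smooth muscle and endothelium (NM_023061, chromosome 9 from 44134658 to 44142727). It was at 6.58 and 6.51 in L1CAM-positive libraries 25 and 31, against 4.32, 4.63 and 4.30 in L1CAM-negative libraries 25, 31 and 28. In FPKM these are 93.9 and 89.4 in L1CAM-positive spheres, against 17.9, 22.8 and 17.8 in L1CAM-negative spheres. The groups were far apart relative to their spread, with a log2 fold change of 2.13 ± 0.13 (SE, limma adjusted p = 0.00539), 4.38-fold on this scale. The difference was 2.27 within number 25 and 1.88 within number 31, and *Mcam* passed without any 1 of the 5 libraries. Over all alternatives its adjusted p lay between 0.000733 and 0.0712, the highest again with the block. Of 8 endothelial markers, 2 were lower in L1CAM-positive spheres (10% of all genes were lower) and 6 did not pass. Their summed FPKM was 36.7 and 37.1 in L1CAM-positive spheres, against 186, 198 and 362 in L1CAM-negative spheres, most of it from *Emcn* (32.8 and 32.1 FPKM in L1CAM-positive spheres, against 145, 154 and 313 FPKM in L1CAM-negative spheres). Of 9 chromaffin markers, 7 were higher (11.6% of all genes were higher) and 2 did not pass. Their summed FPKM was 8397 and 6668 in L1CAM-positive spheres, against 480, 527 and 98.8 in L1CAM-negative spheres. The part of chromaffin and endothelial cells in the level of *Mcam* was not tested.

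*Rgs5*, which encodes a brake on G protein signalling and is a widely used pericyte marker (NM_009063, chromosome 1 from 169655501 to 169695813), differed more between libraries of 1 fraction than between the fractions. It was at 2.63 and 4.86 in L1CAM-positive libraries 25 and 31, against 3.25, 4.89 and 6.36 in L1CAM-negative libraries 25, 31 and 28. The groups overlapped. Both libraries of number 31, grown for 5 days, were near 27 FPKM (27.0 in L1CAM-positive and 27.7 in L1CAM-negative spheres), and both of number 25, grown for 8 days, were lower (4.18 and 7.52 FPKM). The P5 library, L1CAM-negative 28, had 80.0 FPKM. The log2 fold change was -1.09 ± 1.29 (SE), which limma did not call (adjusted p = 0.671), and it was 0.03 without L1CAM-positive library 25. The endothelial markers did not share 1 order of the L1CAM-negative libraries, as *Emcn* and *Plvap* were highest in library 28, *Cdh5* in library 25 and the other 5 in library 31. The part of endothelial cells in the level of *Rgs5* was not tested. Of the 19 other pericyte genes listed below, *Pdgfrb*, *Higd1b*, *Cox4i2*, *Rgs4*, *Angpt1* and *Foxc1* were, like *Rgs5*, highest in L1CAM-negative library 28 and lowest in 25. The rest of that list had other orders. Of these genes, *Pdgfrb*, *Cox4i2*, *Rgs4* and *Angpt1* were also higher in L1CAM-positive library 31 than in 25, and *Higd1b* and *Foxc1* were lower. They were singled out after their values were seen, and no test was made.

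*Cspg4*, which encodes a proteoglycan on the pericyte surface (NM_139001, chromosome 9 from 56865104 to 56899870), was at 2.51 and 2.59 in L1CAM-positive libraries 25 and 31, against 3.21, 3.46 and 2.57 in L1CAM-negative libraries 25, 31 and 28. L1CAM-negative library 28 lay between the L1CAM-positive libraries, and the log2 fold change was -0.54 ± 0.32 (SE), which limma did not call (adjusted p = 0.352). Without that library it was -0.79 and passed (adjusted p = 0.0484), with a range of 0.0484 to 0.677 over the alternatives. *Abcc9* encodes the sulphonylurea-binding subunit of the potassium channel that responds to ATP in vascular muscle (NM_011511, chromosome 6 from 142587862 to 142702766). It was at 3.42 and 3.65 in L1CAM-positive libraries 25 and 31, against 3.51, 4.02 and 3.93 in L1CAM-negative libraries 25, 31 and 28, which overlap (log2 fold change -0.28 ± 0.20 SE, limma adjusted p = 0.432). Its other 3 transcripts were below 1 FPKM in all libraries, as was the other transcript of *Myh11*. The pore subunit of the same channel, *Kcnj8*, also named after its values were seen, did not overlap between the groups, but its log2 fold change of -0.87 did not pass (adjusted p = 0.0781).

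**Figure D4:**
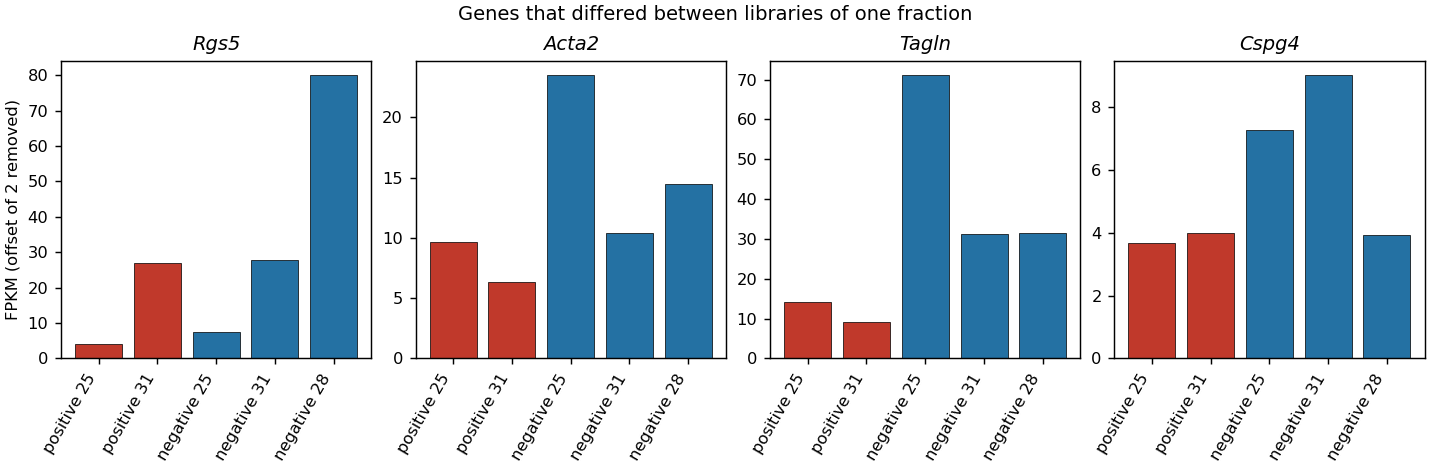
FPKM of *Rgs5*, *Acta2*, *Tagln* and *Cspg4* in each library, red for L1CAM-positive and blue for L1CAM-negative spheres. *Rgs5* runs from 4.18 to 27.0 FPKM within L1CAM-positive and from 7.52 to 80.0 FPKM within L1CAM-negative libraries, and L1CAM-negative 25 has the highest bars of *Acta2* and *Tagln*.

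Within the L1CAM-negative group, the genes did not share 1 order of the libraries. *Acta2* and *Tagln* were highest in library 25, *Rgs5* and, narrowly, *Mylk* in library 28, and *Cspg4*, *Abcc9* and *Mcam* in library 31. Between the 8-day and the 5-day library of the same fraction, *Acta2* was higher at 8 days by 0.49 in L1CAM-positive and by 1.04 in L1CAM-negative spheres, and *Tagln* by 0.56 and 1.14. These are single libraries, so that no test was made.

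Of 22 other genes of the contractile apparatus, 9 were lower in L1CAM-positive spheres, 1 was higher and 12 did not pass the test. Over all genes, 10% were lower and 11.6% were higher. Of the 22 genes, 21 were at 1 FPKM or more in at least 2 libraries. Of 14091 such genes in the whole table, 2267 were lower and 2447 were higher by the same fit. The median log2 fold change of the 22 genes was -0.42. Their counts depend on the fit, and 1 gene was lower and 1 was higher with the robust variance. This list and those below were chosen with earlier results of these data known, and none was tested as a set. *Tpm2*, which encodes a muscle tropomyosin, was at 2.42 and 2.74 in L1CAM-positive libraries 25 and 31, against 3.99, 4.14 and 4.28 in L1CAM-negative libraries 25, 31 and 28 (log2 fold change -1.56, limma adjusted p = 0.0105). For *Csrp1*, a LIM protein of smooth muscle, it was -1.51 (adjusted p = 0.0143). *Tpm4*, a further tropomyosin and with *Csrp1* the most abundant gene of the list, had -0.92 (adjusted p = 0.00901). *Synpo2*, an actin-bundling protein of muscle Z-discs, was the gene that was higher, at 23.0 and 21.3 FPKM in L1CAM-positive libraries, against 3.06, 3.02 and 1.03 FPKM in L1CAM-negative libraries (log2 fold change 2.50, adjusted p = 0.0145). Without L1CAM-positive library 25 or 31, 2 of the 22 genes were lower, and 4 were lower without L1CAM-negative library 25 and 3 without L1CAM-negative library 31. The call of *Synpo2* was lost when each of these 4 libraries in turn was left out.

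Of 21 genes that control contraction, 4 were lower, 2 were higher and 15 did not pass, with a median log2 fold change of -0.03. Over all genes, 10% were lower and 11.6% were higher. Of 14091 genes at 1 FPKM or more in at least 2 libraries, 2267 were lower and 2447 were higher by the same fit. L1CAM-positive spheres lay below all L1CAM-negative ones in 10 of the 21 genes and above them in 4. For all genes these shares were 26.0% and 23.0%, or 37.2% and 33.3% at 1 FPKM or more. By the unadjusted limma p under 0.05, 8 of the 21 were lower and 3 were higher, against 4153 and 4150 of all 23903 genes. *Adra1d*, an α1 adrenoceptor, was at 3.07 and 2.86 in L1CAM-positive libraries 25 and 31, against 4.97, 4.64 and 4.79 in L1CAM-negative libraries 25, 31 and 28 (log2 fold change -1.83 ± 0.13 SE, limma adjusted p = 0.00673). For *Pde5a*, the phosphodiesterase that breaks down cyclic GMP, it was -1.09 (adjusted p = 0.0412). *Rock1*, a kinase downstream of RhoA, and *Ppp1r12b*, a myosin phosphatase subunit, were slightly higher, with 0.19 (adjusted p = 0.0210) and 0.40 (adjusted p = 0.0280). *Rhoa* and *Ppp1cb*, the most abundant genes of the list, did not pass. The count of genes lower was 1 without L1CAM-positive library 25 or 31 or L1CAM-negative library 25, 2 without L1CAM-negative library 31 and 6 without library 28. The count of genes higher was 0 without L1CAM-positive library 31 or L1CAM-negative library 25 or 31 and 1 without L1CAM-positive library 25.

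Of 15 genes of SRF, its coactivators, related transcription factors and targets, 7 were lower and 8 did not pass, with a median of -0.43. None of the 15 was higher by limma (1 at an unadjusted p under 0.05). Over all genes, 10% were lower and 11.6% were higher. Of 14091 genes at 1 FPKM or more in at least 2 libraries, 2267 were lower and 2447 were higher by the same fit. *Srf* itself was between 12.3 and 14.7 FPKM in all libraries and did not pass (log2 fold change -0.17, adjusted p = 0.0574). *Myocd*, which encodes myocardin, was below 0.1 FPKM in all libraries and listed at 0 in L1CAM-positive library 31 and L1CAM-negative library 31. *Gata6*, a transcription factor of smooth muscle and of the adrenal cortex, was at 10.6 and 11.2 FPKM in L1CAM-positive libraries 25 and 31, against 47.3, 52.5 and 47.1 FPKM in L1CAM-negative libraries 25, 31 and 28 (log2 fold change -1.98, limma adjusted p = 0.00363). *Ctgf* and *Cyr61*, which encode matrix proteins, had log2 fold changes of -1.93 (adjusted p = 0.0279) and -1.87 (adjusted p = 0.00467). The count of genes lower was 3 without L1CAM-positive library 25 and 4 without L1CAM-positive library 31 or L1CAM-negative library 25.

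Of 19 other genes used for pericytes, 4 were lower, 3 were higher and 12 did not pass, with a median of -0.59. Over all genes, 10% were lower and 11.6% were higher. Of 14091 genes at 1 FPKM or more in at least 2 libraries, 2267 were lower and 2447 were higher by the same fit. L1CAM-positive spheres lay below all L1CAM-negative ones in 12 of the 19 pericyte genes and above them in 4. The shares of all genes were 26.0% and 23.0%, or 37.2% and 33.3% at 1 FPKM or more. At an unadjusted limma p under 0.05, 10 of the 19 were lower and 4 were higher, against 4153 and 4150 of all 23903 genes. *Pdgfrb*, the receptor by which pericytes are recruited, was at 4.86 and 5.05 in L1CAM-positive libraries 25 and 31, against 5.24, 5.87 and 5.93 in L1CAM-negative libraries 25, 31 and 28, and did not pass (log2 fold change -0.73 ± 0.27 SE, limma adjusted p = 0.158). *Foxc1*, a transcription factor, and *Enpep*, a peptidase that cuts angiotensin, were lower, with -1.67 (adjusted p = 0.0110) and -1.46 (adjusted p = 0.0224). *Ndufa4l2*, a mitochondrial protein induced by low oxygen, was at 139 and 193 FPKM in L1CAM-positive libraries, against 7.35, 7.27 and 3.74 FPKM in L1CAM-negative libraries (log2 fold change 4.39 ± 0.31 SE, limma adjusted p = 0.00665). *P2ry14*, a receptor for UDP sugars, was higher with 0.71 (adjusted p = 0.0131). *Rgs4*, a relative of *Rgs5*, was among the most abundant of the list, at 114 and 285 FPKM in L1CAM-positive libraries 25 and 31, against 11.3, 24.1 and 52.6 FPKM in L1CAM-negative libraries 25, 31 and 28. Its groups did not overlap, and it did not pass (log2 fold change 2.78 ± 0.81 SE, limma adjusted p = 0.102). The count of genes lower was 1 without L1CAM-positive library 25 or 31, 2 without L1CAM-negative library 31 and 8 without library 28, and the count of genes higher was 2 without L1CAM-positive library 31 or L1CAM-negative library 31.

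**Figure D5:**
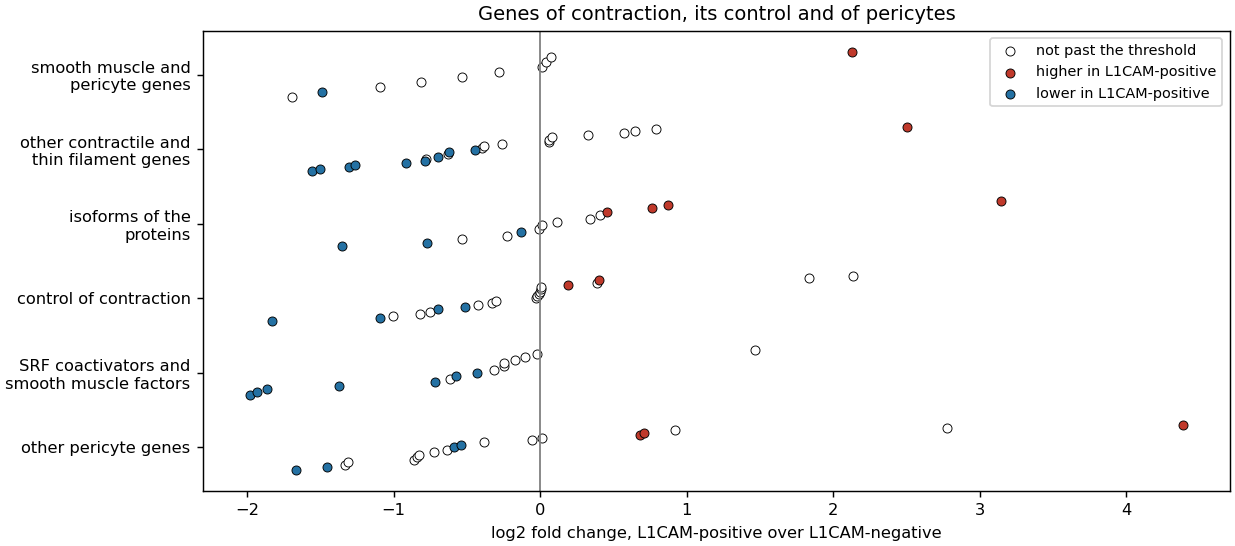
Log2 fold change between the fractions, positive where L1CAM-positive spheres were higher, with 1 point per gene in the 10 genes and in 5 lists of related genes, red where higher, blue where lower and white where the test was not passed. Blue points outnumber red ones among contractile, SRF-related, control and pericyte genes, and red ones outnumber blue ones among the isoforms. *Synpo2*, *Tagln3*, *Ndufa4l2* and, in white, *Rgs4* stand far to the right.

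Other cell types differed between the fractions along with these genes. Of 8 fibroblast and capsule markers, 5 were lower in L1CAM-positive spheres, where 10% of all genes were lower. None of the 8 was higher by limma (0 also at an unadjusted p under 0.05). Their summed FPKM was 1340 and 1475 in L1CAM-positive libraries, against 7918, 6752 and 5279 in L1CAM-negative libraries. All 7 cortex markers were lower, with a summed FPKM of 1783 and 1845 in L1CAM-positive libraries, against 12859, 9065 and 7731 in L1CAM-negative libraries. Of 7 striated muscle markers, none reached 1 FPKM in 2 or more libraries, and *Myog* and *Myod1* were at the floor in all 5. Glial markers (3 of 6 higher, against 11.6% of all genes) and macrophage markers (0 of 6 called, 2 lower at an unadjusted p under 0.05) had summed levels below 100 FPKM in every library. The part of fibroblasts and cortex cells in the levels of *Acta2*, *Tagln* and *Mylk* was not tested. The panning sorts by the L1CAM protein, so that none of the 10 genes was used to define the groups.

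The promoters of the 2 genes that passed the test and of *Acta2* are shown, as sequences from 250 bases before to 50 after a start site in RefSeq (GRCm38.p6). Such a window was found for 7 of the 10 genes. The coordinates given with the genes above span the whole gene in RefSeq, and the window of *Mylk* lies inside that span and not at its beginning, around 34784921, where the GENCODE transcript matched to NM_139300 starts. *Tagln*, *Myh11* and *Actg2* had none. In *Acta2* (chr19:34255324-34255623, minus strand), capitals mark CArG-like boxes, where a CArG box is CC, a core of 6 bases that are A or T, and GG, read on either strand, and 1 mismatch in the core was allowed.
Acta2: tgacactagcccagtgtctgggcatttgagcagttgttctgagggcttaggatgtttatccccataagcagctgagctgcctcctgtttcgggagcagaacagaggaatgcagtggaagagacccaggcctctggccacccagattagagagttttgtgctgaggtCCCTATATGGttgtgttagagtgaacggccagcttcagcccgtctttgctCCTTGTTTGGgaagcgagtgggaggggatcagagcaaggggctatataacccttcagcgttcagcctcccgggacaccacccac
Both boxes of *Acta2* carry 1 mismatch, and neither is a CArG box in the strict sense. Of 32851 such windows, 9.98% held a CArG-like box, 0.822% held 2 or more and 1.63% held a strict one. The other 6 genes with a window had none, which says only that these letters are not in these windows. For *Mylk* (chr16:34784700-34784999, plus strand) and *Mcam* (chr9:44134408-44134707, plus strand), capitals mark CG dinucleotides.
Mylk: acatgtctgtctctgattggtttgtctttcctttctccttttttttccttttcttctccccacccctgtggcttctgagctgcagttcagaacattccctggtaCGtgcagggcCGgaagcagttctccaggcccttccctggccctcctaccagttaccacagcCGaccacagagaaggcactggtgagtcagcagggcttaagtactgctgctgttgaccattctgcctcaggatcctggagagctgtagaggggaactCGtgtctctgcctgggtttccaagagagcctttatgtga
Mcam: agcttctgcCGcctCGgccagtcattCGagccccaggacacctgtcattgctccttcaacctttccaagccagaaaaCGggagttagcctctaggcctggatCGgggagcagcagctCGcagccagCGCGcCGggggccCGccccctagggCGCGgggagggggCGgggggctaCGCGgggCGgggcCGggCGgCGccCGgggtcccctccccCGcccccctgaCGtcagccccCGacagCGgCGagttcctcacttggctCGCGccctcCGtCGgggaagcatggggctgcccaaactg
The window of *Mylk* holds 4 CG dinucleotides, fewer than the median of 7 over all windows. That of *Mcam* holds 29 and has more than 87.1% of all windows.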

How the data were processed

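RNA of 5 libraries of adrenal spheres was sequenced, paired-end on stranded mRNA libraries. STAR 2.6.1a was used by the authors for alignment (mm10), Cufflinks for FPKM of each transcript, and limma for quantile normalization. The deposited values are on a log2 scale, and the offset and the annotation release are not given in the sources used here. The name of the deposited sheet points to a table of 31 samples, of which 5 are analysed here, and whether all were normalized together is not stated. An offset of 2 was inferred from the floor of 1. Between 20.7% and 22.0% of 32737 transcripts were at the floor. Depth is unknown, and no counting interval is given.

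The 202 transcripts without a symbol were left out, and the transcript with the highest mean was kept for each of 23903 genes. No gene was left out for a low value. The groups were compared with limma 3.58.1 (trend, Benjamini-Hochberg) in R 4.3.3, which was tested on simulated data. Python 3.11.15 served for tables, sequences and plots, with pandas 2.3.3, Biopython 1.88 and matplotlib 3.10.9. Named genes were all 10 members and, from each list, the 2 called with the largest change in each direction and the 2 with the highest mean, further all isoforms, *Pdgfrb*, *Srf* and *Myocd*. The members and lists were chosen with earlier results of these data known, and no list was tested as a set. *Mrtfa*, *Mrtfb*, *Ccn1* and *Ccn2* are in the files under older symbols. Alternatives were pseudocounts of 0.1 and 5, a filter on genes at the floor in every library or under 1 FPKM, summed or separate transcripts, repeated quantile normalization, median centring, no trend, robust variance, the library number as a block, a term for days of culture, and fits without each of the libraries.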

Additional observations from a re-analysis of the deposited data

Results flagged for a closer look

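In 5 of the named genes the difference between L1CAM-positive and L1CAM-negative spheres had opposite signs at 5 and at 8 days of culture. *Myh11*, by the transcript kept, had a log2 difference of -0.115 at 5 days, and of 0.16 (against L1CAM-negative 25) and 0.02 (against L1CAM-negative 28) at 8 days. Its other transcript went the opposite way at 8 days. That transcript had 0.00217 FPKM in L1CAM-positive 25, against 0.372 and 0.0300 FPKM in L1CAM-negative 25 and 28. The sign of *Myh11* at 8 days thus depends on the transcript kept. *Actg1* had -0.0162 at 5 days, and 0.20 and 0.26 at 8 days. *Rhoa* had -0.0747 at 5 days, and 0.003 and 0.12 at 8 days. *Mylk2* had 0.0453 at 5 days, and -0.02 and -0.05 at 8 days. *Mylk4* had 0.0470 at 5 days, and -0.002 and -0.02 at 8 days. There is 1 L1CAM-positive library at each time, so that the difference between the times was not tested, and *Myh11*, *Mylk2* and *Mylk4* are close to the floor of the scale.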

How the results depend on the processing

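*Mylk* and *Mcam* kept their direction in all 17 alternatives and their call in 16. The exception was the replicate block, with which 0 genes of the whole table passed limma in either direction (3999 higher and 4418 lower at an unadjusted p under 0.05), and so 0 of the 10 genes in either direction (2 and 3 unadjusted). *Mylk* was then at -1.46 and *Mcam* at 2.08. The number is shared by 2 pairs only, and the block leaves few degrees of freedom among 5 libraries. The deviations of same-numbered libraries from their group means correlated across genes with 0.21 for number 25 and -0.01 for number 31. With 2 L1CAM-positive libraries the deviations of 1 mirror those of the other, so these values cannot decide whether the number pairs the samples. The main fit has no block, and the pairing remains unknown. The number of the 10 genes lower in L1CAM-positive spheres was 2 when floor genes, or those under 1 FPKM, were left out, when *Tagln* joined *Mylk*, and between 1 and 2 when 1 library was left out. The number higher was 2 with a term for days of culture or with median centring, when *Actg2* joined *Mcam*, and 1 without any 1 library. *Myh11* reversed to -0.0740 with summed transcripts, -0.0497 without L1CAM-negative library 25 and -0.0243 without L1CAM-positive library 25, within a range of -0.0497 to 0.0552 over the fits without 1 library. *Rgs5* reversed to 0.0253 without L1CAM-positive library 25, within a range of -2.21 to 0.0253. Over all genes, 1727 were higher and 1273 lower with a term for days of culture, and 797 and 352 with the robust variance, against 2775 and 2393. Leaving out 1 library gave between 1301 and 2805 higher and between 521 and 2942 lower. The counts of related genes moved as well. With the robust variance 1 contractile gene was higher, and 1 contractile gene (9 in the report), 3 SRF-related genes (7), 1 gene of contraction control (4), 1 isoform (3) and 1 pericyte gene (4) were lower, and 1 isoform (4) and 0 control genes (2) were higher. With a term for days of culture 4 contractile genes and 2 control genes were lower, and 2 isoforms, 0 control genes and 0 contractile genes (1) were higher. At 1 FPKM or more, 9 pericyte and 7 control genes were lower and 2 contractile genes and 1 SRF-related gene (0) were higher, and 8 pericyte genes were lower without floor genes and 7 with median centring. The cause of these changes was not tested. Fits with a single L1CAM-positive library assume for it the variance seen among L1CAM-negative ones. Low values and unknown depth limit *Myh11*, *Cnn1* and *Actg2*.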
